A study of Mus musculus with 15 samples.

Results

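The 10 transcription factor genes examined here, Snai1, Snai2, Zeb1, Zeb2, Twist1, Twist2, Prrx1, Runx1, Runx2 and Sox4, are known regulators of epithelial-mesenchymal transition (EMT) and of fibrogenic gene programmes. They were taken by gene symbol from a count table of 33340 genes, so they make up 10 of 33340. RNA sequencing was carried out on polyA RNA of whole lungs from male C57BL/6 mice aged 10 to 12 weeks. Bleomycin, which breaks DNA and leads to scarring, had been instilled into the trachea at 5 U/kg, and the lungs were taken at day 7 (4 libraries), day 14 (4 libraries) or day 21 (3 libraries). The 4 libraries of day 0 carried titles of controls and no vehicle-treated group was analysed here, so that the drug and the instillation cannot be told apart. One day 0 library, replicate 4, had a control title but a treatment label of bleomycin. The title was followed, and each comparison was also run without it. The series text gives 3 replicates for a time point, whereas the titles, which were followed for every n, give 4 at days 0, 7 and 14. The study calls those of days 0, 7 and 14 biological replicates, and the labels do not tie a library to a particular mouse.

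In EMT, epithelial cells lose their junctions and polarity and take on mesenchymal features, and in the endothelial counterpart (EndoMT) endothelial cells do so. The SNAIL, ZEB and TWIST proteins bind E-box sequences and are best known for repressing E-cadherin and other junction genes. PRRX1 is a homeobox factor of mesenchymal cells, the RUNX proteins act with the partner CBFB in blood and bone cells, and SOX4 is a high mobility group factor linked to TGFβ signalling. Many cell types of the lung express 1 or more of these genes, and ZEB2, RUNX1 and RUNX2 are also factors of leukocytes. In whole lung, fewer cells of a type and less RNA per cell cannot be told apart.

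Total counts ranged from 15652008 to 18020661 per library. The share of counts from 16 genes of the mitochondrial genome was 2.28% and 2.31% in day 0 replicates 1 and 2 but 4.22% and 4.04% in replicates 3 and 4. It lay between 2.03% and 2.15% at day 7, at 2.102% in day 14 replicate 1 against 3.74% to 4.14% in the other day 14 libraries, and between 2.66% and 4.01% at day 21. Libraries of the same day therefore stood apart in this share, and the comparisons were repeated with it as a covariate, within the libraries under 2.5% and within those over 3.5%. The fit under 2.5% set the 4 libraries of day 7 against day 0 replicates 1 and 2. The fit over 3.5% set day 14 replicates 2, 3 and 4 against day 0 replicates 3 and 4, of which replicate 4 has the bleomycin label. Every day 7 library had a lower share than every day 0 library, so at day 7 the covariate and the day are hard to tell apart. Markers of lung were present. The 9 alveolar epithelial markers summed to 27636 to 37820 CPM (counts scaled to library size) at day 0 and to 5493 to 11881 CPM at day 21. The 7 cardiac muscle markers summed to 18.8 to 757.9 CPM, with the highest libraries at days 7 and 21.

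Sequences before or at the starts of 3 members are shown because they hold binding motifs of the factors themselves. RefSeq windows of 300 bases (250 before and 50 after a transcript start, build GRCm38.p6) were searched for 8 of the 10 members, 12 windows in all. Snai2 had no window in the set used, Zeb1 was left out of the member search, and both are named only. The E-box CAGGTG, searched on both strands, was in 2 of the 12 windows, those of Snai1 and of the distal Runx1 start, and in 20.2% of all 32851 RefSeq windows. Of the Snai1 window the 250 bases before the start are given (chr2:167537945-167538194, plus strand), with capitals for the E-box, read here as its reverse complement, whose first base is at -126:
Snai1: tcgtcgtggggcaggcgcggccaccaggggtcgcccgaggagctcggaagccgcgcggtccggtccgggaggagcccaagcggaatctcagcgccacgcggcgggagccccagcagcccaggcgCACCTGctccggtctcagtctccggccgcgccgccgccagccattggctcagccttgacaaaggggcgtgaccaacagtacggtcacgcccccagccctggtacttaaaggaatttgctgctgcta

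The RUNX core ACCACA, also searched on both strands, was in 16.8% of all windows, and 1.78% held 2 or more copies. Among the member windows it was in those of the distal Runx1 start (first bases at +29 and +37) and of Runx2 (-80, +24 and +32). Sites of 30 bases just after the 2 starts are set side by side, both on the minus strand, with capitals for the RUNX cores (Runx1 at chr16:92826026-92826055 and Runx2 at chr17:44814584-44814613):
Runx1: tcataaacaACCACAgaACCACAagttggg
Runx2: tcacaaacaACCACAgaACCACAagtgcgg

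Each site held a pair of RUNX cores with 2 bases between them. The SOX core ATTGTT (10.7% of all windows) was found in the Twist1 window and the SMAD box CAGACA (21.0%) in the Twist1 and Sox4 windows. These are matches of letters and not measured binding sites, and no binding was measured in these libraries.

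Levels were compared between genes as CPM per kb of exon, with the exons of all annotated transcripts of a gene merged. The order depends on these lengths, and the transcripts present were not determined. In CPM at day 7, Snai1 (mean 36.7) lay below Zeb1 (90.3) and Zeb2 (139). Sox4 and Twist2 share 54.6% and 46.5% of their exonic bases with genes on the opposite strand, and the effect on their place was not tested. At day 0 the order of the mean levels ran from Zeb1 (12.4 ± 2.34, SD, n = 4) through Snai1 (8.40 ± 2.33), Snai2 (7.26 ± 3.26), Zeb2 (6.42 ± 0.404), Runx1 (5.41 ± 0.876) and Sox4 (3.45 ± 1.33) to Prrx1 (1.28 ± 0.117), Runx2 (1.07 ± 0.0703), Twist2 (0.0935 ± 0.0477) and Twist1 (0.0568 ± 0.0639). Zeb1 lay above Snai1 in every library of day 0, whereas the ranges of the neighbours from Snai1 to Sox4 overlapped. Sox4 was separated from Prrx1, and Runx2 from Twist2. By day 7 Snai1 stood first at 22.6 ± 5.81 CPM per kb (SD, n = 4), separated from Zeb1 at 8.79 ± 0.432. It was first again at day 14 (19.9 ± 4.46) and at day 21 (25.0 ± 3.76, n = 3), with Zeb1 next at 10.6 ± 1.85 and 12.9 ± 1.80, and the ranges of both genes were apart on both days. The TWIST genes were at the bottom of the order at every day.

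**Figure D1:**
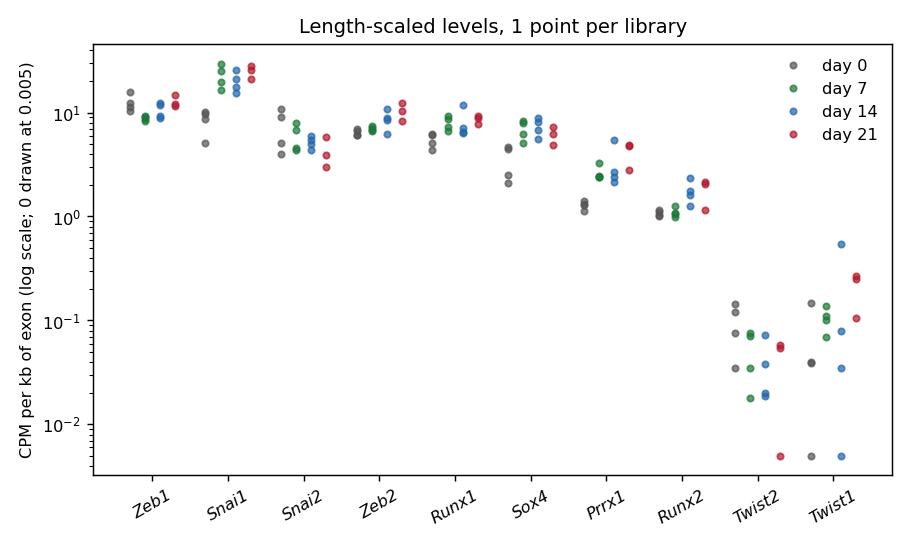
Level of each transcription factor gene in CPM per kb of exon on a log scale, 1 point per library, coloured by day and ordered by the day 0 mean; libraries at 0 are drawn at 0.005. Snai1 moved from 8.40 CPM per kb at day 0 to the top of the order at days 7, 14 and 21, and Twist1 and Twist2 lay below the other 8 genes.

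Against day 0, in the edgeR quasi-likelihood fit, 3 of the 10 members rose at day 7 (Snai1, Prrx1 and Sox4), 4 at day 14 (also Runx2) and 6 at day 21 (also Runx1 and Zeb2), where a change meant a Benjamini-Hochberg adjusted p under 0.05 over 17457 genes and a fold change over 1.5. Among all genes tested, 8.78%, 12% and 12.4% rose at the respective days. When the mitochondrial share was a covariate 1 member rose at day 7, without day 0 replicate 2, 4 rose and 1 fell at day 7, and without day 21 replicate 3, 2 rose and 1 fell at day 21. In the reported fit none of the members fell, against 7.36%, 11.2% and 10.1% of all genes. The filter on low counts kept 8 of the 10 members and left out Twist1 and Twist2. The median log2 fold change over these 8 was 0.33, 0.63 and 0.71 at days 7, 14 and 21, beside 0.01, 0.02 and 0.02 over all genes tested. Every library of the later day exceeded every day 0 library for 4, 5 and 5 members (17.6%, 16.8% and 19.4% of all genes). Every later library lay below for 1 member at day 7, Zeb1, and for none at days 14 and 21 (13.2%, 14.4% and 16% of all genes).

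**Figure D2:**
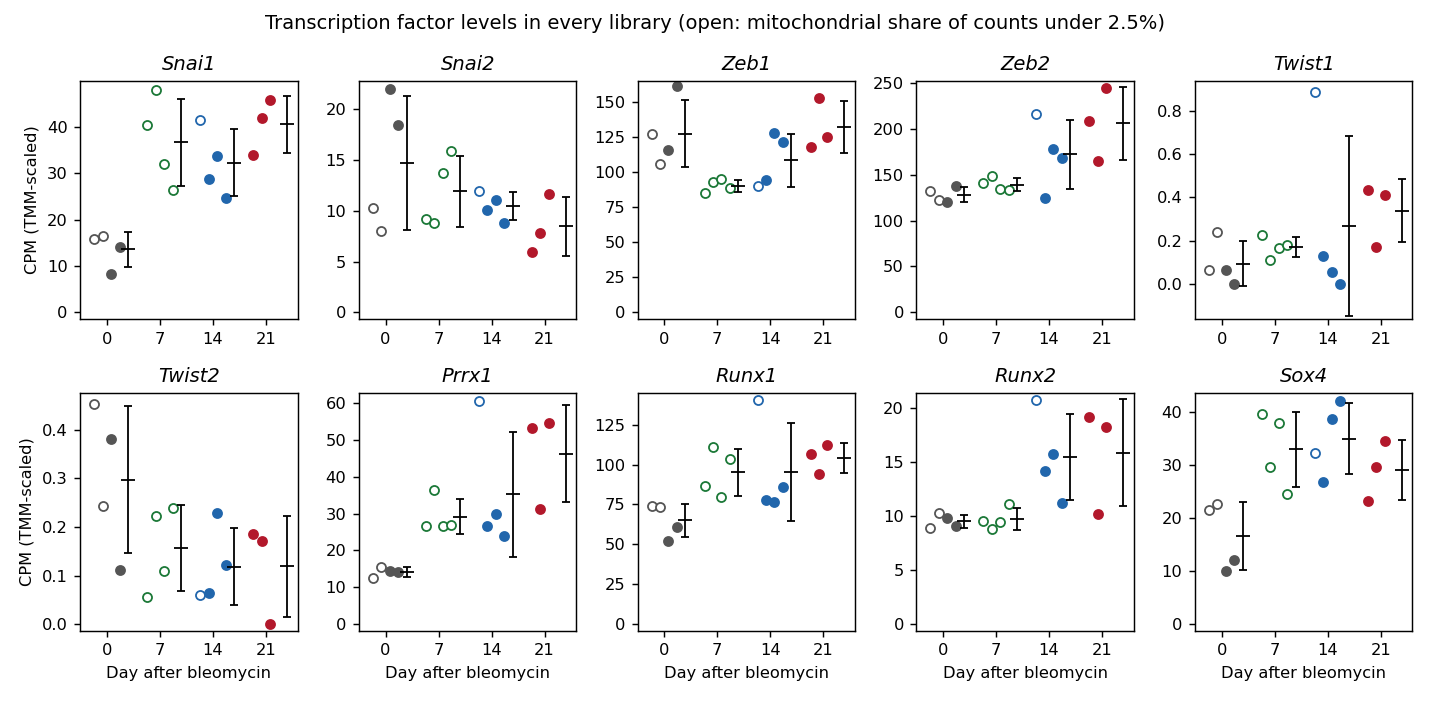
CPM of each transcription factor gene in every library by day after bleomycin; open points are libraries with under 2.5% of counts from mitochondrial genes, and the bars give the mean and SD of a day. For Snai1 the 11 bleomycin libraries sit between 24.8 and 47.9 CPM, all above the day 0 libraries at 8.19 to 16.6, while Zeb1 at day 7 sits between 84.8 and 94.8, below all day 0 libraries.

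Of the SNAIL family, Snai1 (chromosome 2: 167538195-167542814, plus strand, mm10), which encodes the zinc finger repressor of E-cadherin, showed 15.7, 16.6, 8.19 and 14.0 CPM in day 0 replicates 1 to 4. It showed 40.3, 47.9, 32.1 and 26.4 CPM at day 7, 41.5, 28.8, 33.8 and 24.8 CPM at day 14, and 33.9, 41.9 and 45.8 CPM at day 21. All 11 bleomycin libraries were above all 4 day 0 libraries. The log2 fold change was 1.43 ± 0.23 (SE; adjusted p = 0.000589) at day 7, 1.24 ± 0.23 (adjusted p = 0.000782) at day 14 and 1.57 ± 0.24 (adjusted p = 0.000234) at day 21. The rise was called at all 3 days under every alternative tried, with log2 fold changes from 1.04 to 1.65. Within the libraries of low mitochondrial share the day 7 value was 1.17, and within those of high share the day 14 value was 1.38.

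Snai2 (chromosome 16: 14705852-14709385, plus strand), the paralog that encodes Slug, showed 10.3, 8.04, 22.0 and 18.4 CPM at day 0, where replicates 3 and 4, those of high mitochondrial share, were above the other two. The values were 9.18, 8.82, 13.7 and 15.9 CPM at day 7, 11.99, 10.1, 11.1 and 8.81 CPM at day 14, and 6.00, 7.81 and 11.6 CPM at day 21. The days overlapped with day 0 throughout. The log2 differences of -0.30 ± 0.30, -0.48 ± 0.30 and -0.79 ± 0.33 (SE) did not pass (adjusted p = 0.487, 0.232 and 0.0833). Leaving out 1 library at a time gave -0.53 (without day 0 replicate 2) to -0.07 (without day 0 replicate 3) at day 7 and -0.71 to -0.25, without the same libraries, at day 14. At day 21 Snai2 passed the thresholds as lower with DESeq2 (-0.81, adjusted p = 0.0457), without the filter (-0.83, adjusted p = 0.0475), without day 0 replicate 2 (-1.03, adjusted p = 0.0236) and without day 21 replicate 3 (-1.13, adjusted p = 0.0401). Within libraries of high mitochondrial share it was lower at day 14 (-1.02, adjusted p = 0.00859), and within those of low share the day 7 difference had the opposite sign (0.36, adjusted p = 0.372).

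The ratio of the paralogs within a library does not depend on how libraries were scaled. For Snai1 over Snai2 the log2 ratios were 0.61, 1.04, -1.42 and -0.39 at day 0, 2.13, 2.44, 1.22 and 0.73 at day 7, 1.79, 1.51, 1.60 and 1.49 at day 14, and 2.49, 2.42 and 1.97 at day 21. Every library of days 14 and 21 exceeded day 0, and 3 of the 4 at day 7 did. The mean ratio was higher than at day 0 by 1.67, 1.64 and 2.34 (exact two-sided permutation p = 0.0571, 0.0286 and 0.0571). Over the 12 tests of 4 pairs at 3 days no adjusted p was below 0.0857, and the smallest p that 4 against 4 and 3 against 4 libraries allow is 0.0286 and 0.0571.

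Of the ZEB family, Zeb1, a zinc finger homeobox repressor, gave 127, 106, 116 and 161 CPM at day 0 and 84.8, 92.8, 94.8 and 88.6 CPM at day 7. All 4 libraries of day 7 lay below all of day 0. The log2 difference was -0.50 ± 0.14 (SE; adjusted p = 0.0205), which missed the fold threshold of 1.5, and without day 0 replicate 2 it passed (-0.60, adjusted p = 0.0117). When the mitochondrial share was a covariate it was -0.34 (adjusted p = 0.197), and within the libraries of low share -0.38 (adjusted p = 0.0306). Zeb1 gave 89.98, 94.6, 128 and 122 CPM at day 14 and 118, 153 and 125 CPM at day 21, which overlapped with day 0 (log2 differences -0.23 ± 0.14 and 0.05 ± 0.15, adjusted p = 0.229 and 0.84). The sign at day 21 turned without day 0 replicate 2, day 0 replicate 3 or day 21 replicate 2 (-0.06, -0.03 and -0.11).

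Zeb2 (chromosome 2: 44983632-45117395, minus strand), the second ZEB repressor, gave 132, 122, 120.5 and 137 CPM at day 0 and 140.3, 148, 135 and 133 CPM at day 7. It gave 216, 125, 178 and 168 CPM at day 14 and 208, 165 and 244 CPM at day 21. Day 7 overlapped with day 0, 3 of the 4 day 14 libraries were above it, and all 3 of day 21 were. The log2 fold change was 0.12 ± 0.15 (SE; adjusted p = 0.585), 0.43 ± 0.15 (adjusted p = 0.0353, under the fold threshold) and 0.68 ± 0.16 (adjusted p = 0.0041) at days 7, 14 and 21. Without day 21 replicate 3 the day 21 value was 0.50 (adjusted p = 0.0453), under the fold threshold, and without day 14 replicate 1 the day 14 value was 0.28 (adjusted p = 0.152).

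The log2 ratio of Zeb1 to Zeb2 was -0.06, -0.20, -0.06 and 0.23 at day 0, -0.73, -0.67, -0.50 and -0.59 at day 7, -1.26, -0.40, -0.48 and -0.47 at day 14, and -0.82, -0.11 and -0.97 at day 21. It was lower than at day 0 in all libraries of days 7 and 14 and in 2 of the 3 of day 21, with day 21 replicate 2 inside the day 0 range. The mean ratio was lower by a log2 difference of -0.60, -0.63 and -0.61 (exact two-sided permutation p = 0.0286, 0.0286 and 0.114; adjusted p = 0.0857, 0.0857 and 0.152).

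**Figure D3:**
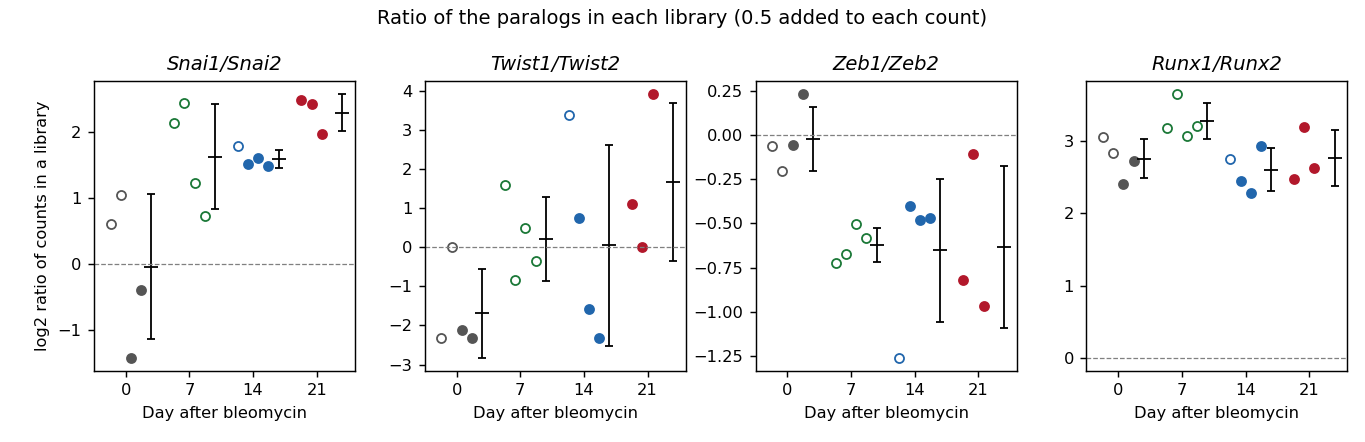
The log2 ratio of the counts of the paralogs in each library by day, with 0.5 added to each count; open points are libraries of low mitochondrial share, bars the mean and SD of a day, and the dashed line equal counts. Snai1 over Snai2 lies between 1.49 and 2.49 at days 14 and 21 against -1.42 to 1.04 at day 0, and Zeb1 over Zeb2 lies below its day 0 libraries at days 7 and 14.

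Of the TWIST family, Twist1 (chromosome 12: 33957671-33959829, plus strand) and Twist2 (chromosome 1: 91801461-91848028, plus strand) encode basic helix-loop-helix factors. Neither was kept by the filter. Twist1 had 0 to 4 counts in each day 0 library, 2 to 4 at day 7, 0 to 15 at day 14 and 3 to 7 at day 21. Its highest value, 0.886 CPM, was in day 14 replicate 1, and the other libraries of that day gave 0 to 0.128 CPM. Twist2 had at most 7 counts in any library, with 0.112 to 0.453 CPM at day 0 and 0 to 0.186 CPM at day 21. In the fit without the filter the log2 differences from day 0 were 0.82, 1.46 and 1.75 for Twist1 (adjusted p = 0.662, 0.388 and 0.302) and -0.89, -1.28 and -1.30 for Twist2 (adjusted p = 0.553, 0.36 and 0.405). With so few counts a change was not detectable. The mean log2 ratio of Twist1 to Twist2 was 1.90, 1.74 and 3.36 above day 0 at days 7, 14 and 21 (exact two-sided permutation p = 0.0857, 0.257 and 0.114), a ratio of counts that were mostly under 5 per library. Without day 14 replicate 1 the day 14 difference was 0.63.

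Prrx1 (chromosome 1: 163245119-163313710, minus strand), the homeobox factor of mesenchymal and fibroblast cells, gave 12.5, 15.6, 14.5 and 14.1 CPM at day 0, a narrow range. The values were 26.6, 36.5, 26.7 and 27.0 CPM at day 7, 60.4, 26.7, 29.9 and 23.8 CPM at day 14 and 53.1, 31.1 and 54.5 CPM at day 21. All later libraries lay above all of day 0, and day 14 replicate 1 and day 21 replicates 1 and 3 were the highest. The log2 fold change was 1.04 ± 0.26 (SE; adjusted p = 0.00968), 1.31 ± 0.26 (adjusted p = 0.0014) and 1.70 ± 0.28 (adjusted p = 0.000345). Without day 14 replicate 1 the day 14 value was 0.89 (adjusted p = 0.00213). When the mitochondrial share was a covariate the day 7 value was 0.71 and did not pass (adjusted p = 0.132), while within the libraries of low share it was 1.04 (adjusted p = 0.0057). The rises at days 14 and 21 were called under every alternative tried.

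The 8 fibroblast markers (Pdgfra, Pdgfrb, Dcn, Lum, Col1a2, Col3a1, Tcf21 and Fbln1) were summed beside Prrx1. Their summed level was 1345 to 1881 CPM at day 0, 3926 to 4744 CPM at day 7, 2807 to 8323 CPM at day 14 and 3826 to 6460 CPM at day 21. The sum was above that of all day 0 libraries in every bleomycin library, but the markers did not move as one. The collagen genes Col1a2 (log2 fold change 1.75, 2.23 and 2.46) and Col3a1 (2.23, 2.11 and 2.28) and Lum (1.40, 1.04 and 1.30) rose at all 3 days, whereas Tcf21 (-0.90 and -1.39) and Fbln1 (-1.003 and -1.44) fell at days 14 and 21, and Pdgfra and Dcn passed at no day. By count, 3 of the 8 markers rose at day 7, 3 rose and 2 fell at day 14, and 4 rose and 2 fell at day 21, and none was at or near 0. Their part in the result was not tested.

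Of the RUNX family, Runx1 (chromosome 16: 92601466-92826149, minus strand), a regulator of blood cell formation, gave 73.9, 73.4, 52.3 and 60.5 CPM at day 0 and 86.6, 111, 79.5 and 103 CPM at day 7. It gave 141, 77.7, 76.4 and 86.1 CPM at day 14 and 107, 93.8 and 112 CPM at day 21. All 11 bleomycin libraries were above all of day 0. The log2 fold change was 0.55 ± 0.18 at day 7, 0.55 ± 0.18 at day 14 and 0.68 ± 0.20 at day 21 (SE; adjusted p = 0.0403, 0.0316 and 0.0169), and the fold was past 1.5 at day 21. The call at day 21 was lost without day 0 replicate 3 (0.56, adjusted p = 0.0587), day 0 replicate 4 (0.62, adjusted p = 0.0507), day 21 replicate 1 (0.63, adjusted p = 0.0634) or day 21 replicate 3 (0.58, adjusted p = 0.0841). Without day 14 replicate 1 the day 14 value was 0.28 (adjusted p = 0.152). Leaving out any other day 14 library, day 0 replicate 1 or day 0 replicate 2 moved it past the fold threshold, to between 0.59 and 0.64, and the same held for day 7 without day 0 replicate 2 (0.59) or day 7 replicate 3 (0.63). When the mitochondrial share was a covariate the value was 0.21 (adjusted p = 0.398) at day 7, 0.59 (adjusted p = 0.00228, past the fold threshold) at day 14 and 0.74 (adjusted p = 0.000821) at day 21. Within the libraries of low share it was 0.35 (adjusted p = 0.114) at day 7.

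Runx2 (chromosome 17: 44495987-44814797, minus strand), the master regulator of osteoblast differentiation, gave 8.87, 10.2, 9.78 and 9.09 CPM at day 0 and 9.52, 8.82, 9.39 and 11.1 CPM at day 7. It gave 20.7, 14.2, 15.7 and 11.2 CPM at day 14 and 19.2, 10.1 and 18.2 CPM at day 21. Day 7 overlapped with day 0, every library of day 14 was above both days, and day 21 replicate 2 remained in the range of day 0. The log2 fold change was 0.03 ± 0.20 (SE; adjusted p = 0.923) at day 7, 0.70 ± 0.20 (adjusted p = 0.0154) at day 14 and 0.74 ± 0.22 (adjusted p = 0.0186) at day 21. The day 14 call was lost without day 14 replicate 1 (0.51, adjusted p = 0.0665) and within the libraries of high mitochondrial share (0.53, adjusted p = 0.123). The day 21 call was lost without day 0 replicate 1 (0.67, adjusted p = 0.0538), day 21 replicate 1 (0.54, adjusted p = 0.122) or day 21 replicate 3 (0.58, adjusted p = 0.104).

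The log2 ratio of Runx1 to Runx2 was 3.05, 2.84, 2.41 and 2.73 at day 0, 3.18, 3.65, 3.08 and 3.21 at day 7, 2.76, 2.45, 2.28 and 2.94 at day 14, and 2.48, 3.21 and 2.62 at day 21. All 4 libraries of day 7 exceeded day 0, by 0.52 in the mean (exact two-sided permutation p = 0.0286, adjusted p = 0.0857). At days 14 and 21 the libraries overlapped with day 0, and the mean ratio differed by -0.15 (p = 0.457) and 0.01 (p = 1) in the same exact test. The 9 myeloid markers (Ptprc, Csf1r, Cd68, Adgre1, Mrc1, Marco, Itgam, Ly6c2 and S100a8) summed to 565 to 723 CPM at day 0, 714 to 886 CPM at day 7, 857 to 1626 CPM at day 14 and 770 to 1341 CPM at day 21. Of these markers 2 rose and 1 fell at day 7, 6 rose at day 14, and 4 rose and 1 fell at day 21, and the part of leukocytes in the RUNX and Zeb2 values was not tested. The 8 lymphoid markers summed to 79.6 to 138 CPM at day 0 and 25.2 to 46.5 CPM at day 21. None of them rose, and 0, 5 and 4 fell at days 7, 14 and 21.

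Sox4 (chromosome 13: 28948919-28953713, minus strand), a single-exon SOXC gene, gave 21.5, 22.6, 10.1 and 12.1 CPM at day 0, where the libraries of high mitochondrial share were the lower ones. It gave 39.5, 29.6, 38.0 and 24.6 CPM at day 7, 32.3, 26.9, 38.6 and 42.0 CPM at day 14 and 23.1, 29.5 and 34.5 CPM at day 21. Every later library was above every day 0 library, the lowest of them, day 21 replicate 1, by a small margin. The log2 fold change was 0.99 ± 0.25 (SE; adjusted p = 0.00948), 1.08 ± 0.25 (adjusted p = 0.00367) and 0.81 ± 0.26 (adjusted p = 0.0288). At day 7 the value was 0.56 (adjusted p = 0.0672) within the libraries of low mitochondrial share and 0.71 (adjusted p = 0.0987) with the share as a covariate. At day 14 it was 1.68 (adjusted p = 0.00252) within the libraries of high share. The day 21 call was lost without day 0 replicate 3 (0.61, adjusted p = 0.0841), day 0 replicate 4 (0.66, adjusted p = 0.0928), day 21 replicate 2 (0.76, adjusted p = 0.0756) or day 21 replicate 3 (0.63, adjusted p = 0.136), and also when days 0 and 21 were fitted alone (0.78, adjusted p = 0.0691). In the annotation 54.6% of the exonic bases of Sox4 were shared with Gm26735 on the opposite strand, which held at most 1 count in any library. The strand setting of the counting was not given in the sources used here, so what the shared bases did to the Sox4 counts was not tested. Twist2 likewise shared 46.5% of its exonic bases with Gm29100, which held at most 4 counts. The other members shared at most 5.87% of theirs, Runx2 with Runx2os1 (at most 5 counts), Zeb2 with Zeb2os (at most 8 counts), Zeb1 with Gm10125 (22 to 96 counts) and Runx1 with Gm26626 (at most 15 counts), while Supt3 (64 to 155 counts) overlapped Runx2 without shared exonic bases.

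**Figure D4:**
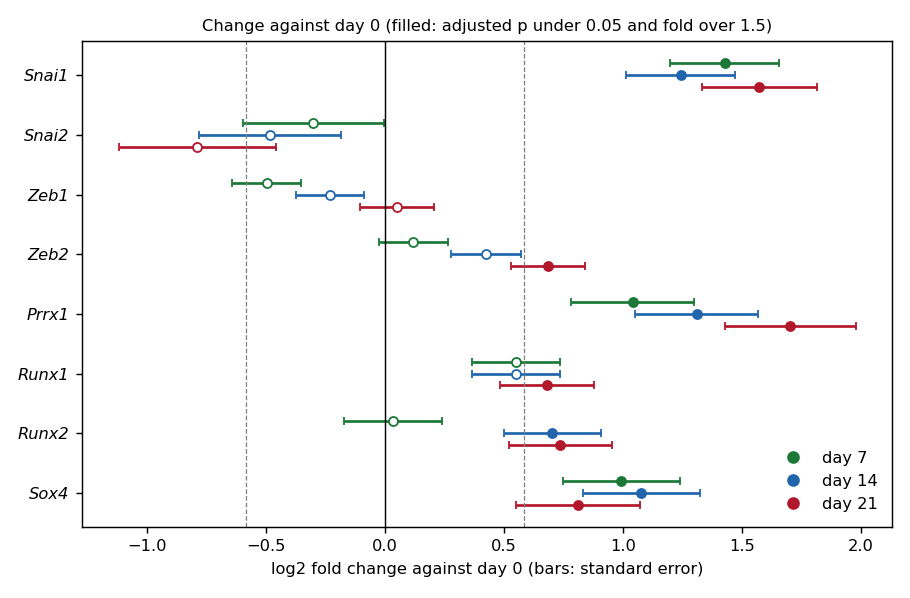
log2 fold change of the 8 tested transcription factor genes against day 0 at days 7, 14 and 21, with bars for the standard error; filled points passed an adjusted p of 0.05 and a fold of 1.5, whose limits are the dashed lines. Snai1 and Prrx1 lie above 1 at all 3 days, Sox4 between 0.81 and 1.08, Runx2 and Zeb2 near 0 at day 7 and at 0.74 and 0.68 at day 21, and Snai2 is negative at all 3 days without passing.

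Between the bleomycin days few members differed. No member passed between day 14 and day 7 (6% of all genes did in either direction), where Runx2 was higher in all 4 libraries of day 14 but missed the threshold at 0.67 ± 0.20 (SE; adjusted p = 0.0574). Between day 21 and day 7, 1 member rose (9.54% of all genes changed). This was Runx2, by 0.70 ± 0.22 (adjusted p = 0.0448), and the call was lost when any library of either day but day 21 replicate 2 was left out (0.53 to 0.78, adjusted p = 0.0589 to 0.204). Zeb1 and Zeb2 differed by 0.55 ± 0.15 and 0.57 ± 0.16 (adjusted p = 0.0312 and 0.0292) under the fold threshold, and all 3 libraries of day 21 were above all 4 of day 7 for both. The share of all genes so separated between bleomycin days was not counted, here or for Runx2, so these separations are only a description. When the mitochondrial share was a covariate Runx2 was not called (0.85, adjusted p = 0.064), Zeb2 was (0.71, adjusted p = 0.0326), and Zeb1 was at 0.37 (adjusted p = 0.201). No member changed between day 21 and day 14, where edgeR called 0% of the 17457 genes, with 1714 genes at an unadjusted p under 0.05.

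For each of the 6 members that changed at 1 or more days, the tested genes with the closest course were taken as those with the smallest root mean square difference of log2 CPM, each relative to its day 0 mean, over the 15 libraries. Snai1 had Loxl1, a lysyl oxidase that crosslinks elastin and collagen, at 0.18, Emilin1, an elastic fibre glycoprotein, at 0.25, and Aldh18a1, an enzyme of proline synthesis, at 0.26. For Prrx1 these included Uck2 (0.23) and Dab2 (0.24), and for Sox4 they were Slc29a3 (0.24), Ccnd1 (0.26), which encodes cyclin D1, and Ptpn7 (0.27). Runx1 had among them Txnrd1 (0.13) and Pros1 (0.14), and Runx2 had Pik3r5 (0.21), Pirb (0.21) and Frrs1 (0.21), of which Pik3r5 and Pirb are known from leukocytes. Zeb2 had Ptprs, Synj2 and Tfpi, each at 0.16. The points share libraries and depth, and the distances are a description.

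Related genes were counted in 4 lists with the same fit and thresholds. Beside them, 8.78%, 12% and 12.4% of all genes tested rose at days 7, 14 and 21, and 7.36%, 11.2% and 10.1% fell. Of 14 family and partner genes, 13 were tested (Scrt1 was not). At days 7, 14 and 21, 2, 2 and 2 rose and 1, 1 and 2 fell, with a median log2 fold change of 0.06, -0.04 and 0.05. With 13 genes, these counts lie near the shares of all genes. Prrx2, the paralog of Prrx1, rose by 2.88 at day 14 (adjusted p = 0.000994), from 2 to 17 counts per library at day 0 to 31 to 125. Sox12, a SOXC relative of Sox4, rose by 0.72 (adjusted p = 0.0356), and Lef1, a high mobility group factor of Wnt signalling, fell by 1.27 on the log2 scale (adjusted p = 0.00134). Sox11, the other SOXC relative, singled out after its values were seen, fell at days 7 and 21 (-1.30 and -1.67, adjusted p = 0.031 and 0.0127). The day 7 count of 3 became 1 or 2 when any 1 library of days 0 and 7 was left out. It was 1 without day 0 replicate 4, day 7 replicate 1 or day 7 replicate 4, and also when the mitochondrial share entered the fit.

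Of the 21 epithelial target genes, 5 rose and none fell at day 7, 3 rose and 5 fell at day 14, and 2 rose and 6 fell at day 21. The median log2 fold change was 0.21, -0.15 and -0.21. Cldn4, a tight junction claudin, rose by 4.10 at day 14 (adjusted p = 6.42e-06) and Krt18, a keratin of simple epithelia, rose by 0.94 (adjusted p = 0.00216). Ovol1, an epithelial zinc finger factor, fell by 1.01 on the log2 scale (adjusted p = 0.0179) and Grhl2, the grainyhead factor of epithelial identity, fell by 0.88 (adjusted p = 0.000403). Cdh1, the E-cadherin gene and the classical SNAIL target, singled out after its values were seen, did not pass at any day, with log2 differences of 0.46, 0.07 and -0.33 (adjusted p = 0.0533, 0.772 and 0.189). Without day 14 replicate 3, and likewise within the libraries of high mitochondrial share, 5 of the genes changed at day 14 in place of 8. Alongside, 1, 3 and 7 of the 9 alveolar epithelial markers fell at days 7, 14 and 21 and none rose. Of the 4 airway markers tested, 1, 4 and 1 fell; Krt5, the basal cell keratin, was at 3 counts or fewer in every library of days 0 and 14. What these markers contributed to the epithelial counts was not tested.

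Of the 17 mesenchymal EMT genes, 16 were tested (S100a4, at most 7 counts, was not), and 8, 14 and 14 rose at days 7, 14 and 21 while none fell. The median log2 fold change was 1.16, 1.42 and 1.67. Tnc, the matrix protein tenascin-C, rose by 5.26 at day 14 (adjusted p = 3.96e-06), Fn1, fibronectin, by 3.33 (adjusted p = 1.12e-05), Col1a1, type I collagen, by 2.87 (adjusted p = 0.000208) and Loxl2, a lysyl oxidase-like enzyme, by 2.24 (adjusted p = 0.000277). Each of these genes was above day 0 in every day 14 library. The day 14 libraries were spread widely, at 379 ± 278, 4142 ± 2935, 2282 ± 1885 and 101 ± 59.6 CPM (SD, n = 4), so the sizes of these changes are uncertain. Leaving out 1 library at a time, 12 to 14 of the mesenchymal genes changed at day 14. Cdh2, the N-cadherin gene, and Tagln, a smooth muscle gene, did not pass at day 14 (-0.26 and 0.85, adjusted p = 0.427 and 0.123). Tagln had at most 31 counts in a library and shared 67.9% of its exonic bases with other genes, and S100a4 shared 51.7%. The fibroblast marker sums given beside Prrx1 were higher in every bleomycin library than at day 0, and Col3a1 belongs to both lists.

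Of 11 RUNX-linked bone genes only 6 were tested; Bglap, Bglap2, Dlx5, Ibsp and Sp7 were left out by the filter. Of the 6, 3 rose and none fell at each day, with a median log2 fold change of 1.08, 1.81 and 2.19. Spp1, osteopontin, rose by 5.15 at day 14 (adjusted p = 2.33e-06), Mmp13, a collagenase, by 3.46 (adjusted p = 1.94e-05) and Col10a1, type X collagen of cartilage, by 3.14 (adjusted p = 0.00379). Col10a1 had 0 to 2 counts per library at day 0 and 8 to 17 at day 14, so the size of its fitted change is uncertain. Of the 9 myeloid markers 6 rose at day 14, with a median log2 fold change of 1.35, and their part in the values of Spp1 and Mmp13 was not tested. The 10 endothelial markers, which bear on EndoMT, summed to 4659 to 5626 CPM at day 0, 3274 to 4129 CPM at day 7, 2962 to 4382 CPM at day 14 and 4173 to 5443 CPM at day 21. Of these 4 fell at day 7, 4 fell at day 14, and 1 rose and 1 fell at day 21. All 6 cycling cell markers rose at each day.

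**Figure D5:**
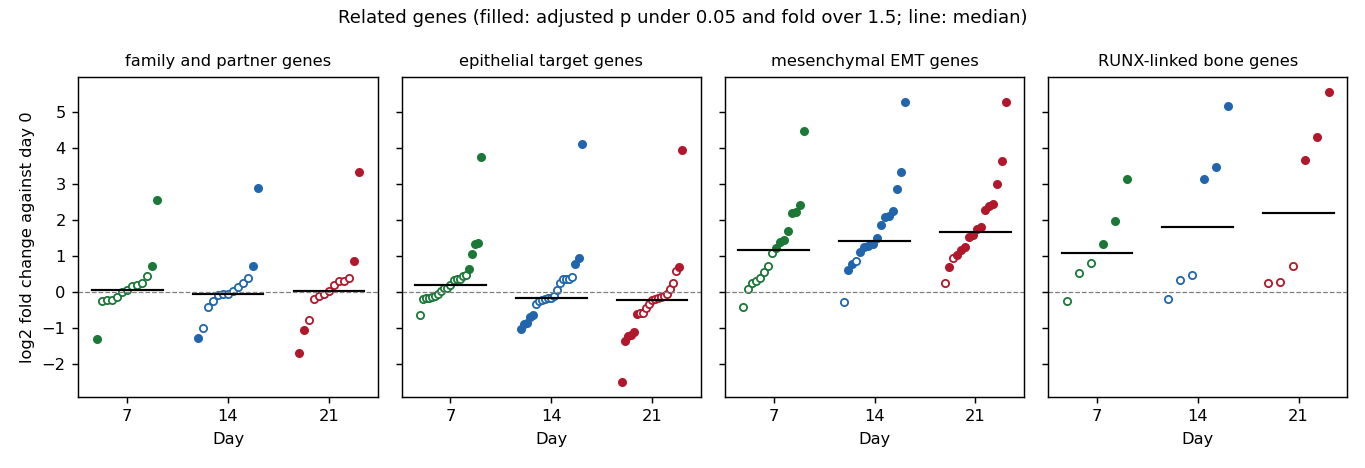
log2 fold change against day 0 of the tested genes in 4 related lists at days 7, 14 and 21, 1 point per gene, filled where the gene passed an adjusted p of 0.05 and a fold of 1.5; the line is the median. The mesenchymal medians lie at 1.16, 1.42 and 1.67 and the epithelial medians at 0.21, -0.15 and -0.21.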

How the data were processed

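Whole lungs were profiled by polyA RNA-seq (NEBNext Ultra kit, 150 bp reads). The authors aligned the reads to mm10 (GRCm38) with HISAT2 2.1.0, dropped multi-mapped reads and deposited the HTSeq 0.6.0 output as raw counts, 1 row per Ensembl gene. The annotation release and the strand setting were not given in the sources used here. Symbols and exon lengths came from GENCODE M21, which matched 33267 of 33340 identifiers. The others held 0.00889% of the counts.

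Counts were tested with edgeR 4.0.16 (R 4.3.3): TMM, filterByExpr by day, quasi-likelihood F tests on all 15 libraries with day as the only term, and Benjamini-Hochberg adjustment over 17457 genes. CPM and CPM per kb were computed with TMM-scaled totals. Paralog ratios had 0.5 added to each count and were tested by exact permutation (scipy 1.17.1). Alternatives were DESeq2 1.42.0, limma voom 3.58.1, total count scaling, no filter, the days compared alone, a replicate block, the mitochondrial share, no fold threshold and leaving out each library. No libraries were duplicates: chi-square per degree of freedom was 10.9 to 82.8 over the 21 pairs of a day. The members, gene lists and tests were chosen with earlier results of these data known. All members were named, and from each list up to 4 of the genes changed at day 14 with the largest change, the genes not tested, and the genes with the closest course, some of which are not reported here. Total counts of 15652008 to 18020661 limit precision for genes of few counts.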

Additional observations from a re-analysis of the deposited data

Results flagged for a closer look

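In 4 of the 30 member and day combinations with 4 libraries, 1 library lay far from the rest by Dixon's gap test. Chance gives about 5% for independent combinations, but 3 of these 4 flags came from 1 library. At day 7, replicate 2 gave 36.5 CPM of Prrx1 and the others 26.6 to 27.0 CPM. Day 14 replicate 1 stood apart for 3 members, with Prrx1 at 60.4 CPM against 23.8 to 29.9, Runx1 at 140.6 CPM against 76.4 to 86.1, and Twist1 at 0.886 CPM against 0 to 0.128. This library also had the lowest mitochondrial share of its day (2.102%) the highest sums of fibroblast markers (8323 CPM against 2807 to 3660 CPM) and of myeloid markers (1626 CPM against 857 to 1351 CPM), and the lowest sum of alveolar epithelial markers (8977 CPM against 18058 to 22226 CPM), and the part of these in these values was not tested.

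For 3 members the change from day 0 differed between days 21 and 7 by a test of the difference itself (edgeR, all 15 libraries). Zeb1 was 0.547 higher on the log2 scale at day 21 than at day 7 (adjusted p = 0.0312) and Zeb2 0.566 higher (adjusted p = 0.0292), each in 3 of 3 libraries and each under the fold threshold of 1.5. Runx2 was 0.704 higher (adjusted p = 0.0448), in 2 of 3 libraries. The share of all genes with libraries so separated between these days was not counted. When the mitochondrial share was a covariate the values were 0.375 (adjusted p = 0.201), 0.71 (adjusted p = 0.0326) and 0.854 (adjusted p = 0.064) for Zeb1, Zeb2 and Runx2. Leaving out libraries of either day in turn gave adjusted p from 0.0477 to 0.145 for Zeb1, 0.0235 to 0.133 for Zeb2 and 0.0157 to 0.204 for Runx2. For Zeb1 the adjusted p was above 0.05 without day 21 replicate 2 (0.404, adjusted p = 0.145) or any day 7 library (adjusted p = 0.0501 to 0.0875). For Zeb2 it did so without day 21 replicate 1 or 3 or day 7 replicate 1, 3 or 4 (adjusted p = 0.0669 to 0.133).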

How the results depend on the processing

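Of 760 values of single members under an alternative, 677 kept their direction and their side of the thresholds, 27 passed newly, 30 no longer passed and 26 changed sign. Of 407 counts and ratios, 381 were within 1.5 times of, or had the direction of, the reported value. The cause of these shifts was not tested. At day 7, where 3 members changed, the count was 1 when the mitochondrial share was a covariate and 5 with no fold threshold. Between day 14 and day 7 DESeq2 called 1 member. Between day 21 and day 7 limma voom, no filter and the 2 days alone each called 0 and no fold threshold 3. The family and partner count was 1 with the covariate (day 7) and 1 within libraries of high mitochondrial share (day 14), where the epithelial count was 5. Signs turned for Runx1 between days 14 and 7 (limma voom -0.035, total counts -0.0096, no filter -0.0075), for Zeb2 (-0.015) and Runx2 (-0.10) at day 7, Snai1 between days 14 and 7 (0.22) and Sox4 between days 21 and 7 (0.19) with the covariate, and for Snai2 at day 7 within low mitochondrial share (0.36). Leaving out 1 library at a time, members changed ranged from 3 to 5 at day 7 (5 without day 0 replicate 2) and from 3 to 7 at day 21 (3 without day 21 replicate 3), from 0 to 1 between days 14 and 7 and from 0 to 2 between days 21 and 7. The family count at day 7 ranged from 1 to 2 and the epithelial count at day 14 from 5 to 8. Log2 values ranged from -0.039 to 0.077 (Runx2, day 7), -0.11 to 0.15 (Zeb1, day 21), -0.25 to 0.094 (Runx1), -0.12 to 0.42 (Prrx1) and -0.031 to 0.20 (Sox4) between days 14 and 7, and -0.14 to 0.26 (Runx2) between days 21 and 14, and the Runx1 to Runx2 ratio at day 21 from -0.21 to 0.15. Within a range of mitochondrial share, day 7 (low) and day 14 (high) could be set against day 0, and no fit was made for the other comparisons.

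Libraries of different days share replicate numbers, which the labels do not tie to a mouse or batch. Deviations of 21 pairs with the same number correlated at a median of 0.04 (-0.24 to 0.40) against -0.03 for 63 other pairs, and 9 of 15 libraries correlated best with their own number. With a replicate block 3, 4 and 5 members changed at days 7, 14 and 21 against 3, 4 and 6, with Sox4 at day 21 at 0.77 (adjusted p = 0.0627). Between days 21 and 7 the count stayed at 1 but of another gene, as Runx2 was lost (0.64, adjusted p = 0.0717) and Zeb1 gained (0.60, adjusted p = 0.0237), and the signs of Runx1 between days 14 and 7 (-0.026), Runx2 between days 21 and 14 (-0.0064) and the Runx1 to Runx2 ratio at day 21 (-0.0019) turned. Twist1 and Twist2 had at most 15 and 7 counts in a library, which limits what could be detected for them.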
